A study of Mus musculus with 90 samples.

Results

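The genes described here are nuclear genes named for subunits of the mitochondrial respiratory chain and of ATP synthase in mouse liver. They were chosen by symbol alone: Nduf genes of the A, B, C, S and V series with a number (complex I), Sdha to Sdhd (complex II), all Uqcr symbols (complex III), Cox4 to Cox8 (complex IV) and all Atp5 symbols (complex V), leaving out symbols that end in a pseudogene number. The rule still takes in 4 genes annotated as processed pseudogenes (Ndufb4c, Ndufs6b, Ndufa11b and Cox6c2), which are counted with the complex of their symbol. This rule found 88 of the 27654 gene IDs in the deposited tables, with 40 genes for complex I, 4 for II, 8 for III, 19 for IV and 17 for V. Complexes follow the symbol alone, so Ndufa4 and Ndufa4l2 are counted with complex I whichever complex their proteins join. In oxidative phosphorylation, complexes I and II pass electrons from NADH and succinate to ubiquinone, and complexes III and IV carry them on to oxygen while protons are pumped across the inner mitochondrial membrane. ATP synthase, complex V, makes ATP as the protons flow back. The liver depends on this pathway to pay for gluconeogenesis and urea synthesis and to burn the fatty acids that reach it during fasting.

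The study asked how caloric restriction, time of day and the glucocorticoid receptor (GR) shape gene expression in the liver, using polyA RNA-seq of whole liver from male C57BL/6J mice, with 90 libraries of single mice in 28 groups. A diet experiment compared WT mice at ZT12 on caloric restriction (n = 3) with WT mice on control diet (n = 3), where ZT counts hours from lights on. A time series sampled ZT0, 4, 8, 12, 16 and 20 in mice that carry floxed GR alleles (GRfl/fl, here called WT) and in GRfl/fl x Alb-Cre mice, called GR LKO, in which Cre under the albumin promoter deletes GR in hepatocytes. A hormone experiment compared WT mice at ZT12 that got 5 mg/kg corticosterone (CORT) by daily injection for 7 days (n = 3) with mice given vehicle (n = 3).

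Caloric restriction began at 12 weeks of age and was stepped up over weeks to 40% fewer calories, and control mice ate chow freely until feeding was restricted to the night for the last 7 days. The 3 controls of the diet experiment have AL in their titles, although the treatment on their labels is night-restricted feeding. The CORT mice and their controls, also 12 weeks old at the start, were fed at night only, and the vehicle was ethanol in Miglyol oil. In the time series each group had 3 mice per time point on caloric restriction, and 3 or 4 on control diet. Both diets of the series sit in separate tables of libraries, so that diet and library batch cannot be told apart there and levels are compared between its diets only through interactions with genotype or time.

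Libraries held 14235473 to 20788575 counts in the time series on caloric restriction, 10057544 to 17089004 on control diet, 36442195 to 39492146 in the diet experiment and 13739631 to 16077943 in the CORT experiment. The subunit genes took 0.813% to 1.25% of the counts of a library. Values per library are CPM (counts scaled to a common library size) after TMM scaling. A gene is called in a comparison at an adjusted p under 0.05 from the edgeR quasi-likelihood F test, adjusted over all genes tested, and rose or fell are used of called genes only.

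The labels were checked on the GR gene itself, Nr3c1, and on its classical target Fkbp5. At ZT12 on caloric restriction, Nr3c1 stood at 103, 98.0 and 103 CPM in WT livers and at 30.9, 32.1 and 30.6 CPM in GR LKO livers. On control diet it stood at 83.7, 89.0, 76.1 and 88.9 CPM in WT and 18.8, 20.8, 20.3 and 25.1 CPM in GR LKO livers. Every GR LKO library lay below every WT library of its diet. Fkbp5 stood at 46.0, 58.1 and 88.9 CPM in the controls of the diet experiment and at 313, 377 and 302 CPM on caloric restriction. In the hormone experiment Fkbp5 stood at 52.8, 41.6 and 19.9 CPM with vehicle and 216, 294 and 198 CPM with CORT, so that treated and control livers did not overlap. The 7 hepatocyte markers, with Alb and Apoa1 among them, summed to 176430 ± 3232 CPM (SD, n = 3) in WT on caloric restriction at ZT12, so the labelled tissue carries its markers.

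Most subunits had counts enough to be tested. Of the 88 genes, 75 passed the filter on low counts in all 18 comparisons of groups, 5 in some and 8 in none, and counts of tested members leave those out: Ndufs6b, Ndufa11b, Cox8b, Cox4i2, Cox6a2, Cox8c, Cox7b2 and Atp5g2. Per kilobase of transcript, the median subunit of complex V stood at 231 CPM per kb in WT livers on caloric restriction at ZT12, against 212 for complex II, 186 for III, 127 for IV and 74.6 for I. Atp5b, the catalytic beta subunit of ATP synthase, had the highest level of all at 891 CPM per kb, and Cox4i1 led complex IV at 474 CPM per kb.

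Where a subunit has a tissue isoform, the liver form made up nearly all of the transcript. Per kilobase, the lung form Cox4i2 held at most 0.0504% of the Cox4i1 and Cox4i2 pair in any of the 28 groups, and the muscle forms Cox6a2 and Cox8b at most 0.115% and 0.291% of theirs. The muscle form Cox7a1 was less rare, from 0.484% of its pair with Cox7a2 in CORT livers to 4.42% on caloric restriction in the diet experiment. Cox8c and Cox7b2 had no count in any library. Ndufa4 and its paralogue Ndufa4l2 were counted at 0.718 to 5.08 and 0.587 to 2.22 CPM per kb in group means. Cox5b and Ndufs8, which with Ndufa4 are common subunits of these complexes, also had few counts, with means of 0.609 and 4.56 CPM over all libraries (both chosen after their values were seen). The annotation behind the deposited counts is not stated, and whether such low counts reflect the RNA or the quantification was not tested.

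Some subunits have close copies that the quantification may not tell apart. Cut into words of 31 bases, the transcripts of 56 members shared at most 10% of their words with other genes, while 5 shared over 50%: Ndufb4c, Atp5l, Cox6c2, Atp5h and Uqcrb. The closest copy of Atp5h, the pseudogene Gm10250, held 56.7% of its words but stood at a mean of 0.0743 CPM. The closest copy of Atp5l, Gm10221, stood at 27.6 CPM beside 133 CPM for Atp5l itself. Ndufb4c, annotated as a processed pseudogene, stood at 37.5 CPM, above the 15.8 CPM of Ndufb4, which holds all of its words. Atp5g2, a ring subunit of ATP synthase, had no count in any library, while its closest copy, the pseudogene Gm10175, with 13.4% of its words, stood at a mean of 95.2 CPM, so levels of such pairs are uncertain.

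Caloric restriction at ZT12 raised a minority of the subunits in WT livers by small amounts. Of 78 members tested, 20 were called, 17 higher and 3 lower on caloric restriction. This is 25.6% of the members, below the 47.1% of all 13062 genes called in this comparison, so the share is not in itself a result about the subunits. The direction was uneven, with 60 members above 0 and 18 below, and a median log2 fold change of 0.10 against 0.00 for all genes tested. In whole liver, more RNA per hepatocyte and more hepatocytes among the cells cannot be told apart. The hepatocyte markers summed to 163630 ± 1254 CPM (SD, n = 3) on caloric restriction against 99176 ± 2659 CPM in controls. Of the 7, 3 rose and 1 fell, while 4 of 6 endothelial markers rose. All 5 tested erythrocyte markers were below 0, with a median of -0.77 and 1 called lower. Of 4 tested cholangiocyte markers 2 rose, and of 6 stellate markers 2 rose and 2 fell. The part of such shifts in the subunit values was not tested.

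ATP synthase had 8 of its 16 tested genes called, 7 higher and 1 lower, a share near that of all genes, and differences between the complexes were not tested. Atp5h, subunit d of the peripheral stalk (ENSMUSG00000034566, chr11:115415689-115419962, minus strand, GRCm38), stood at 190, 175 and 171 CPM on caloric restriction and 139, 139 and 133 CPM on control diet. Atp5b stood at 1406, 1379 and 1329 CPM against 1081, 1100 and 1074 CPM. Neither gene overlapped between the diets, which the rule for naming the largest rises required, and the control libraries of each lay within a narrow band. The log2 fold change was 0.38 ± 0.0709 (SE) for Atp5h with an edgeR adjusted p of 0.00463, and 0.34 ± 0.0666 for Atp5b with 0.00581, and both were called in each of the 6 fits that left out 1 library. Atp5o, which joins the peripheral stalk to the catalytic head, rose in the same way, from 132, 131 and 129 CPM to 165, 156 and 157 CPM (log2 fold change 0.29). The other catalytic subunit, Atp5a1, did not pass the test: it stood at 1136, 1029 and 947 CPM on caloric restriction and 997, 1040 and 996 CPM on control diet, where the groups overlap. Atp5s, a coupling factor of low abundance, fell from 3.52, 4.00 and 2.82 CPM to 1.09, 1.40 and 1.12 CPM.

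Complex I had 10 of 38 tested genes called, 8 higher and 2 lower. Ndufb5, an accessory subunit of the membrane arm (ENSMUSG00000027673, chr3:32736990-32751566, plus strand), rose from 66.5, 68.1 and 66.5 CPM to 88.0, 84.8 and 76.9 CPM. Its log2 fold change was 0.31 ± 0.0710 (SE), with an edgeR adjusted p of 0.0102. Ndufb3, another membrane arm subunit, went the other way, at 33.5, 28.2 and 24.5 CPM against 40.7, 44.0 and 37.2 CPM on control diet. The groups of neither gene overlap, which the rule for naming them required. The call of Ndufb3 (log2 fold change -0.50 ± 0.124, edgeR adjusted p 0.0143) was lost without control replicate 2 (0.0546) and without caloric restriction replicate 2 (0.0528). Its adjusted p was 0.00180 to 0.0146 over DESeq2 and the other settings that keep all libraries. Ndufv1, which binds NADH, stood at 168, 166 and 156 CPM against 147, 139 and 139 CPM and rose by 0.20 on the log2 scale. The iron-sulfur subunit Ndufs1 did not pass the test, with 131, 112 and 102 CPM against 123, 137 and 125 CPM. Ndufa4l2, a paralogue of Ndufa4 known from hypoxia, fell from 2.13, 1.88 and 1.24 CPM to 0.851, 0.753 and 0.386 CPM.

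Complexes II and III had 0 of 4 and 0 of 8 genes called by edgeR, and complex IV had 2 of 12, both higher. Sdha, the flavoprotein of succinate dehydrogenase, stood at 566, 500 and 482 CPM on caloric restriction and 519, 556 and 538 CPM on control diet. The Rieske iron-sulfur protein Uqcrfs1 stood at 177, 176 and 162 CPM against 174, 172 and 158 CPM. Both pairs of groups overlap. In complex IV, Cox4i1 rose from 293, 293 and 273 CPM to 334, 331 and 346 CPM, with no overlap. The muscle isoform Cox7a1 rose from 1.03, 0.995 and 0.759 CPM to 2.69, 2.89 and 2.37 CPM, the largest rise of any member called (log2 fold change 1.51 ± 0.197, edgeR adjusted p 0.00120), at a level of a few CPM.

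Most of the smaller changes stood near the threshold. Leaving out 1 library moved the edgeR count of 20 to 9 without control replicate 1, 7 without control replicate 2, 8 without control replicate 3 and 7 without caloric restriction replicate 2. The count was 13 without a filter on low counts and 22 with DESeq2.

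Among the genes that build the complexes, more were called lower than higher on caloric restriction. Of 46 assembly factors tested, 25 fell on caloric restriction and 1 rose, with a median log2 fold change of -0.34. Of 76 proteins of the mitochondrial ribosome, 45 fell and 0 rose (edgeR), with a median of -0.26, and 6 of 17 import proteins and chaperones fell. The tricarboxylic acid cycle, which feeds the chain with NADH and succinate, had 4 of 14 enzymes higher and 2 lower. Of the 13 subunits that mitochondrial DNA encodes, edgeR called 0, with a median of 0.10. These counts stand beside a background in which 47.1% of all genes were called, 3073 higher and 3082 lower. Differences between the lists were not tested.

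Of 13 listed regulators of mitochondrial gene expression 6 were called, 5 higher and 1 lower, a share near the 47.1% of all genes and so not in itself a result about them. Ppargc1a, the coactivator PGC-1alpha, stood at 64.4, 57.1 and 72.2 CPM on caloric restriction and 16.2, 17.4 and 16.8 CPM on control diet. Its relative Ppargc1b stood at 10.5, 9.50 and 9.99 CPM against 6.41, 4.32 and 5.53 CPM, and the transcription factor Nrf1 at 10.5, 10.7 and 10.5 CPM against 7.82, 8.22 and 8.04 CPM. No group of these 3 genes overlapped its control, with log2 fold changes of 1.94, 0.88 and 0.40 and edgeR adjusted p of 6.40e-05, 0.00327 and 0.00621. Their partners were not called: Esrra, the nuclear receptor through which PGC-1alpha acts on many of these genes, stood at 44.8 ± 3.12 CPM (SD, n = 3) against 45.7 ± 4.88 CPM, and Gabpa at 50.3 ± 3.47 against 50.3 ± 2.55 CPM. Tfam, which packages and transcribes mitochondrial DNA, stood at 43.2 ± 2.09 against 46.5 ± 0.572 CPM, and Ppara, which governs fatty acid oxidation, at 146 ± 4.95 against 127 ± 17.8 CPM.

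After corticosterone for 7 days, without caloric restriction, almost no subunit passed the test, and most had a log2 fold change slightly below 0. Of 76 members tested, edgeR called 1, against 8.11% of all 11523 genes, and 12 members, all lower with CORT, had an unadjusted p under 0.05, as did 2997 of all 11523 genes, which is a larger share. DESeq2 also called 1 member. The sign was nearly uniform, with 70 members below 0 and 6 above, and the median log2 fold change was -0.14 against -0.01 for all genes. The median log2 fold changes were -0.13, -0.14, -0.15, -0.19 and -0.12 for complexes I to V, and differences between complexes were not tested. With the size factors of DESeq2 in place of TMM the median stayed within 0.01 of its value. All 8 Kupffer and myeloid markers were above 0, with a median of 0.47 and 2 called higher, and summed to 108, 155 and 132 CPM with CORT against 75.2, 98.4 and 106 CPM with vehicle, led by Clec4f. All 5 tested erythrocyte markers were below 0, with a median of -0.89 and 0 called by edgeR, and summed to 326, 561 and 299 CPM against 698, 632 and 788 CPM, led by Hbb-bs. Of 7 hepatocyte markers 1 rose, with a median of 0.02, and the part of cell types in the shift was not tested.

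The gene called with CORT was Cox7a1, the muscle isoform. It stood at 0.314, 0.199 and 0.279 CPM with CORT and 1.51, 1.13 and 0.911 CPM with vehicle, so that every treated library lay below every control. The log2 fold change was -2.15 ± 0.421 (SE) with an edgeR adjusted p of 0.0259, a range of 0.0261 to 0.0667 over the other settings, and 0.0577 to 0.0976 on leaving out any of the 6 libraries. At fewer than 2 CPM this is a difference of few counts, and muscle markers other than the subunits summed to 15.5 CPM in vehicle replicate 2 and 7.84 CPM in CORT replicate 1. Their part in the Cox7a1 values was not tested.

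The better known subunits were not called. Sdha stood at 449, 421 and 485 CPM with CORT against 531, 511 and 515 CPM with vehicle, with no overlap, and did not pass the test (log2 fold change -0.20, edgeR adjusted p 0.221). Atp5b stood at 1049, 1004 and 1105 CPM against 1133, 1045 and 1087 CPM, and Cox4i1 at 282, 247 and 266 CPM against 279, 259 and 304 CPM. Uqcrc1, a core protein of complex III, stood at 212, 187 and 213 CPM against 226, 208 and 224 CPM, and Ndufs1 at 91.4, 87.2 and 106 CPM against 113, 104 and 95.4 CPM. In each of these 4 genes the groups overlap.

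Of 13 listed regulators edgeR called 2, both higher with CORT, where 8.11% of all genes were called. Among them, CORT raised Ppargc1b from 3.67, 2.93 and 3.50 CPM to 6.31, 9.77 and 7.62 CPM (log2 fold change 1.23, edgeR adjusted p 0.0196). This call was kept in 2 of the 6 fits that left out 1 library, with adjusted p up to 0.0845. Ppargc1a stood at 10.8, 36.5 and 11.1 CPM against 6.69, 7.87 and 5.44 CPM, with 1 treated liver far above the others, and was not called by edgeR (log2 fold change 1.55, adjusted p 0.10, 0.00890 to 0.101 over the other settings, with the lowest from DESeq2). The mitochondrially encoded subunits had a median log2 fold change of -0.28, and edgeR called 0 of 13. Of 45 assembly factors 2 fell, and of 75 mitochondrial ribosomal proteins 2 fell, with median log2 fold changes of -0.15 and -0.09.

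Loss of hepatocyte GR was compared at each of the 6 time points within each diet. At single time points the subunits were seldom called, on either diet. On caloric restriction, edgeR called 0 of 78 members at ZT0 (0.502% of all genes), with 4 at an unadjusted p under 0.05 and 0 by DESeq2. At ZT4 it called 0 of 78 (0.690% of all genes), with 9 unadjusted and 1 by DESeq2, and at ZT8 0 of 78 (2.55%), with 7 unadjusted and 1 by DESeq2. At ZT16 edgeR called 0 of 78 (4.54%), with 5 unadjusted and 1 by DESeq2, and at ZT20 0 of 77 (1.47%), with 12 unadjusted and 3 by DESeq2. Over all genes the unadjusted counts at these 5 times were 1606 of 12140, 1755 of 12025, 2092 of 12070, 2285 of 11905 and 2340 of 12076. Of the 6 times only ZT12, at lights off and the daily peak of glucocorticoids, gave calls by edgeR on this diet.

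At ZT12 on caloric restriction 3 of 78 members fell in GR LKO livers, which is 3.85% against 15.3% of all 11759 genes. Cox5a, a subunit of complex IV (ENSMUSG00000000088, chr9:57521274-57532426, plus strand), stood at 122, 128 and 121 CPM in GR LKO and 172, 159 and 172 CPM in WT livers. Uqcrh, the hinge protein of complex III, stood at 166, 173 and 170 CPM against 222, 210 and 208 CPM. Ndufa1, a small subunit of complex I, stood at 45.4, 52.7 and 49.5 CPM against 65.4, 58.7 and 62.3 CPM. In all 3 genes every GR LKO liver lay below every WT liver, which the rule for naming the largest falls required.

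The call of Cox5a was the most stable of the 3, with a log2 fold change of -0.44 ± 0.0767 (SE), an edgeR adjusted p of 0.0105, a range of 1.78e-06 to 0.0640 over other settings, and at most 0.0473 on leaving out any library. Uqcrh (log2 fold change -0.33, edgeR adjusted p 0.0255) had 0.0548 to 0.0786 without 1 of the 6 libraries, and Ndufa1 (-0.34, 0.0409) had 0.0526 to 0.112. The count of 3 was 1 without WT replicate 2, WT replicate 3, GR LKO replicate 2 or GR LKO replicate 3. It was 9 with DESeq2 and 0 with a replicate block, which treats equal replicate numbers as paired. Of the 78 members 56 were below 0, with a median of -0.10 against 0.00 for all genes. Atp5b stood at 1511, 1595 and 1586 CPM against 1833, 1609 and 1678 CPM, and Cox4i1 at 311, 388 and 357 CPM against 387, 326 and 361 CPM. The genotypes were apart in Atp5b and overlapped in Cox4i1, and neither gene was called.

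Of 13 mitochondrially encoded subunits edgeR called 1 lower at ZT4, 7 at ZT12 and 7 at ZT16, where the median was -0.46. At ZT12 the median log2 fold change was -0.43, and all 13 together summed to 108820, 112980 and 103210 CPM in GR LKO against 128780, 147320 and 147560 CPM in WT livers. Their shortfall was clearest in mt-Cytb, the cytochrome b of complex III, at 9076, 8542 and 7175 CPM against 12876, 15024 and 14775 CPM. Cycs, cytochrome c, fell from 66.7, 66.3 and 61.7 CPM to 41.0, 40.0 and 42.0 CPM, and Ppargc1a from 52.3, 71.1 and 65.5 CPM to 37.5, 27.9 and 31.1 CPM, with log2 fold changes of -0.67 and -0.97. In all 4 of these values the genotypes do not overlap. Mt-Cytb and Cycs lie outside the rule for named genes and were chosen after their values were seen. The libraries also differed in cell type markers: the hepatocyte markers summed to 130130, 138700 and 120100 CPM in GR LKO and 172710, 178150 and 178450 CPM in WT, with 5 of 7 fallen, and 3 of 8 Kupffer and myeloid markers rose. Their part in the subunit values was not tested. GR LKO replicate 1 of this group carried 209.8 CPM of muscle markers outside the subunits, where replicates 2 and 3 had 0, and without it each count that includes it stayed within 1.5 times its value.

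On control diet edgeR called 0 of 77 members at ZT0 against 0.536% of all genes, while 24 had an unadjusted p under 0.05 (1798 of all 11749 genes), 22 of them higher in GR LKO livers, and DESeq2 called 3. There 66 of 77 members were above 0 and the median log2 fold change was 0.10. All 8 Kupffer and myeloid markers were below 0 at that time (median -0.54), and summed to 114, 131 and 158 CPM in GR LKO against 199, 138 and 254 CPM in WT livers. All 5 tested erythrocyte markers were above 0, with 1 called higher, and the adipocyte markers summed to 45.5, 20.7 and 18.6 CPM against 1.07, 0 and 0.0712 CPM in WT. In the GR LKO livers nearly all of this was Cfd, with Adipoq, Plin1 and Lep at 0. The part of cell types in the subunit values was not tested. At ZT4 edgeR called 0 of 77 (0.195%), with 5 unadjusted and 0 by DESeq2, and at ZT8 0 of 78 (1.43%), with 7 unadjusted and 1 by DESeq2. At ZT12 it called 0 of 78 (2.08%), with 2 unadjusted and 0 by DESeq2. ZT16 gave 0 of 78 by edgeR (1.98%), with 4 unadjusted and 1 by DESeq2, and ZT20 gave 0 of 78 (0.420%), with 2 unadjusted and 0 by DESeq2. From ZT4 to ZT20 on this diet 1152 of 11817, 1301 of 11582, 1444 of 11428, 1950 of 11723 and 1346 of 11906 genes had an unadjusted p under 0.05. Without GR LKO replicate 3 the count at ZT16 was 2, and without GR LKO replicate 1 the count at ZT20 was 1, as it was at ZT20 on caloric restriction without GR LKO replicate 1.

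Averaged over the 6 time points, more members came past the test than at any single time, mostly downward on caloric restriction and mostly upward on control diet. Cox5a, Uqcrh and Ndufa1 were called on caloric restriction both over the day and at ZT12. On caloric restriction 17 of 79 members were called, 14 lower and 3 higher in GR LKO livers, 21.5% against 32.9% of all genes, with a median log2 fold change of -0.04. On control diet 19 of 79 were called, 18 higher and 1 lower, 24.1% against 18.6% of all genes, with a median of 0.05. All of these changes were small, and among the called genes none on either diet moved by more than 0.33 on the log2 scale. The counts were 11 without replicate 2 and 9 without replicate 3 of every group on caloric restriction. On control diet they were 9 without replicate 1, 6 without replicate 2 and 12 without replicate 3.

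**Figure D1:**
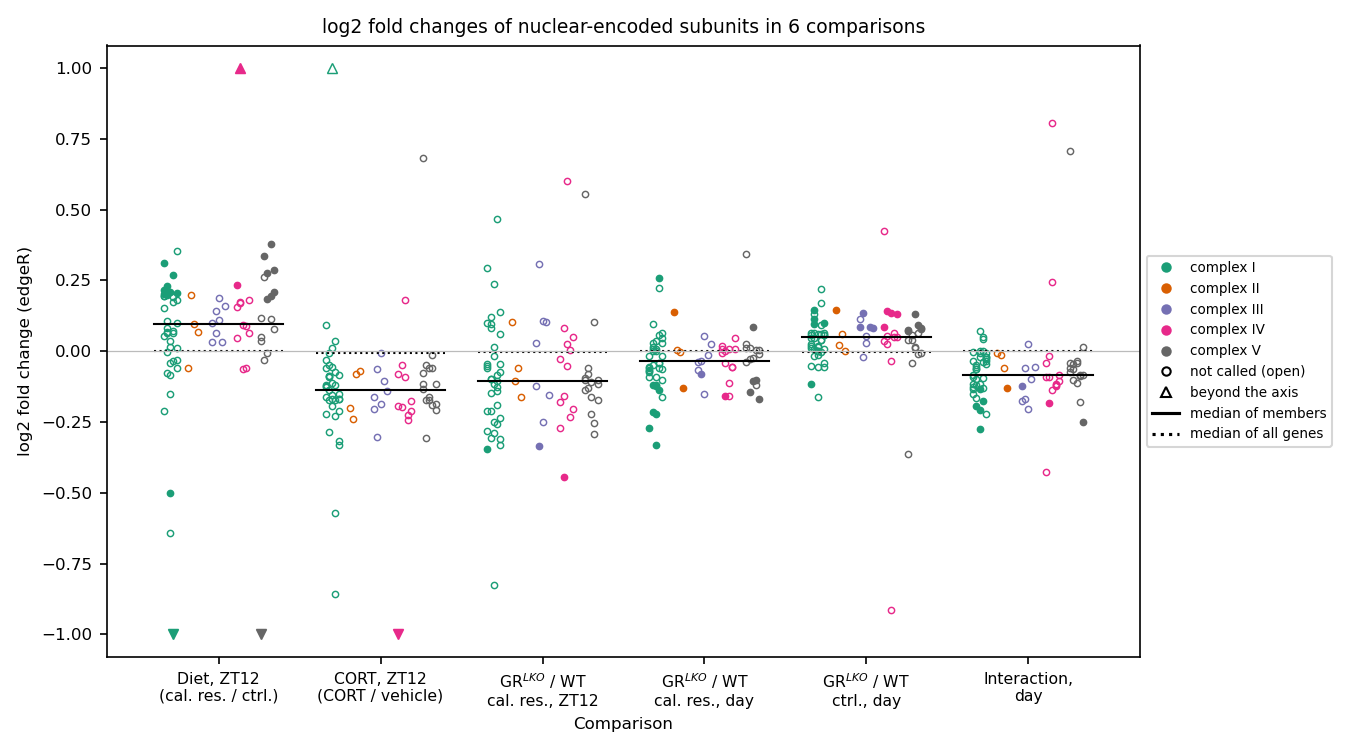
log2 fold changes of the tested subunits (vertical axis, edgeR) in 6 comparisons, with 1 point per gene coloured by complex, filled points for called genes, triangles for values beyond the axis, solid bars for the median of the subunits and dotted bars for all genes. The medians were 0.10 for diet, -0.14 for CORT, -0.10 for GR LKO on caloric restriction at ZT12, -0.04 and 0.05 for GR LKO over the day on caloric restriction and control diet, and -0.08 for their interaction.

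Ndufa8, an accessory subunit of complex I (ENSMUSG00000026895, chr2:36036326-36049406, minus strand), had the largest fall over the day on caloric restriction, with a log2 fold change of -0.33 ± 0.0319 (SE) and an edgeR adjusted p of 4.14e-09. At ZT0 it stood at 58.2, 56.2 and 64.5 CPM in GR LKO and 73.1, 70.8 and 67.1 CPM in WT livers, and at ZT4 at 53.0, 54.7 and 55.8 against 71.6, 77.0 and 71.9 CPM. At ZT8 the values were 63.7, 54.5 and 59.8 against 69.9, 74.5 and 71.6 CPM, and at ZT12 51.7, 61.0 and 59.9 against 77.4, 65.6 and 69.4 CPM. At ZT16 they were 64.3, 61.8 and 54.1 against 83.8, 77.1 and 74.1 CPM, and at ZT20 60.4, 56.9 and 56.9 against 69.1, 77.7 and 76.6 CPM. At each of the 6 times every GR LKO liver lay below every WT liver. At ZT12 on control diet the genotypes overlapped, with 67.0, 74.8, 80.4 and 78.1 CPM in GR LKO and 82.3, 78.4, 88.0 and 90.6 CPM in WT livers.

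The other falls over the day on caloric restriction were mostly in accessory subunits of complex I, with Ndufa1 (log2 fold change -0.27), Ndufb6 (-0.22) and Ndufa11 (-0.22) next in size among them. By complex, 7 genes of complex I fell and 1 rose, in complex II Sdhd fell and Sdha rose, Uqcrh fell in complex III, Cox5a in IV, and 4 fell and 1 rose in V. Sdha was higher in GR LKO livers by 0.14 (edgeR adjusted p 0.000706, and 0.0875 without replicate 3, the highest among the fits that left out 1 replicate number). Sdha was also higher on control diet, by 0.15 (0.000497), as were Atp5g3, a ring subunit of ATP synthase (0.13), Ndufa7 (0.15) and Uqcr11 (0.13). At ZT0 on control diet Sdha stood at 693, 685 and 650 CPM in GR LKO and 591, 594 and 506 CPM in WT livers, with no overlap. At ZT12 on that diet it stood at 554, 561, 624 and 621 against 594, 586, 513 and 530 CPM, where the genotypes overlap.

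The difference between the diets was tested as an interaction of genotype and diet, in which a constant batch effect of a diet drops out. At ZT12 edgeR called 0 of 79 members against 1.01% of all genes, with 2 at an unadjusted p under 0.05 and 1 by DESeq2, and it called 1 without control diet WT replicate 4. Over the day it called 9 of 80 members, 11.3% against 3.01% of all 13376 genes, and in all 9 the log2 effect of GR loss was lower under restriction than with the control diet. There were 32 members at an unadjusted p under 0.05 (2128 of all genes), all of them in that direction, and 70 of 80 had a value below 0, with a median of -0.08 against 0.00 for all genes. The count was 4 without replicate 1 of every group, 3 without replicate 2 and 4 without replicate 3.

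Ndufa8 had the smallest p among the 9, with an interaction of -0.27 ± 0.0457 (SE, edgeR adjusted p 7.71e-05), and was called in every fit that left out a replicate number. Also called were Ndufb6 (-0.19), Atp5e, the epsilon subunit of ATP synthase (-0.25), and Cox5a (-0.18), with edgeR adjusted p of 0.00405, 0.00481 and 0.00770, and Ndufa11, Sdhd, Ndufs6 and Uqcrfs1, these 4 named after their values were seen. Ndufb6 lost its call without replicate 2 (0.0552) and replicate 3 (0.0875), Atp5e without replicate 1 (0.112) and replicate 2 (0.186), and Cox5a without replicate 1 (0.0646), replicate 2 (0.168) and replicate 3 (0.0630).

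Of all genes called in this interaction 270 were lower and 133 higher. Cycs, Cyc1 and Ndufab1, which belong to the pathway but not to the symbol rule, were all called lower, at -0.33, -0.24 and -0.20 on the log2 scale. Of 13 mitochondrially encoded subunits 4 were called, all lower, with a median of -0.15, and of 77 mitochondrial ribosomal proteins 6, all lower. Of 46 assembly factors 4 were called, 3 lower and 1 higher. None of the 13 regulators was called by edgeR. Within the diets, 11 of 13 mitochondrially encoded subunits fell with GR loss under caloric restriction and 7 of 13 on control diet, with medians of -0.32 and -0.14. On both diets 5 of the 7 hepatocyte markers fell over the day, and on caloric restriction all 6 endothelial markers rose. In the interaction 1 hepatocyte marker was called lower and 1 erythrocyte marker higher, while 0 of the endothelial, stellate, lymphocyte and Kupffer or myeloid markers were called by edgeR. All 6 endothelial, all 6 stellate, all 6 lymphocyte and all 5 tested erythrocyte markers were above 0, with medians of 0.23, 0.22, 0.86 and 0.13, and the 8 Kupffer and myeloid markers had a median of 0.28. Their part in these values was not tested.

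Over the day, the summed subunits were highest around the start of the dark phase in every group after TMM scaling. In WT livers on caloric restriction all 88 genes together summed to 10979 ± 151 CPM (SD, n = 3) at ZT0, 11310 ± 419 at ZT4, 11553 ± 492 at ZT8, 13024 ± 675 at ZT12, 11123 ± 317 at ZT16 and 10633 ± 477 at ZT20. In GR LKO livers on that diet they summed to 10834 ± 147, 10985 ± 171, 11631 ± 512, 12199 ± 824, 11318 ± 267 and 10687 ± 869 CPM at the same times. On control diet WT livers (n = 3 or 4) gave 10051 ± 428, 10431 ± 369, 10712 ± 61.8, 11844 ± 431, 11454 ± 358 and 10797 ± 488 CPM. GR LKO livers on control diet gave 11097 ± 415, 10955 ± 315, 11255 ± 511, 11532 ± 431, 11914 ± 592 and 11138 ± 694 CPM. The maximum fell at ZT12 in the first 3 groups and at ZT16 in the last, where ZT12 and ZT16 lay within their spread of each other.

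Single subunits followed the sum, on the same TMM scale. Of the 79 members past the filter, 53 had their highest mean at ZT12 in WT on caloric restriction, 45 in GR LKO on caloric restriction and 58 in WT on control diet, while in GR LKO on control diet 54 had it at ZT16 and 7 at ZT12. The same hour was the highest of 24.1%, 21.2% and 23.4% of all genes at ZT12 and of 22.0% at ZT16. Most swings were shallow, with a median ratio of highest to lowest mean of 1.27, 1.23, 1.24 and 1.17 in the 4 groups, against 1.70, 1.69, 1.49 and 1.49 for all genes. In WT on caloric restriction the subunits encoded in the mitochondria summed to 141220 ± 10776 CPM at ZT12 and 133320 ± 11053 CPM at ZT16, and to 101560 ± 18815 CPM at ZT8.

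**Figure D2:**
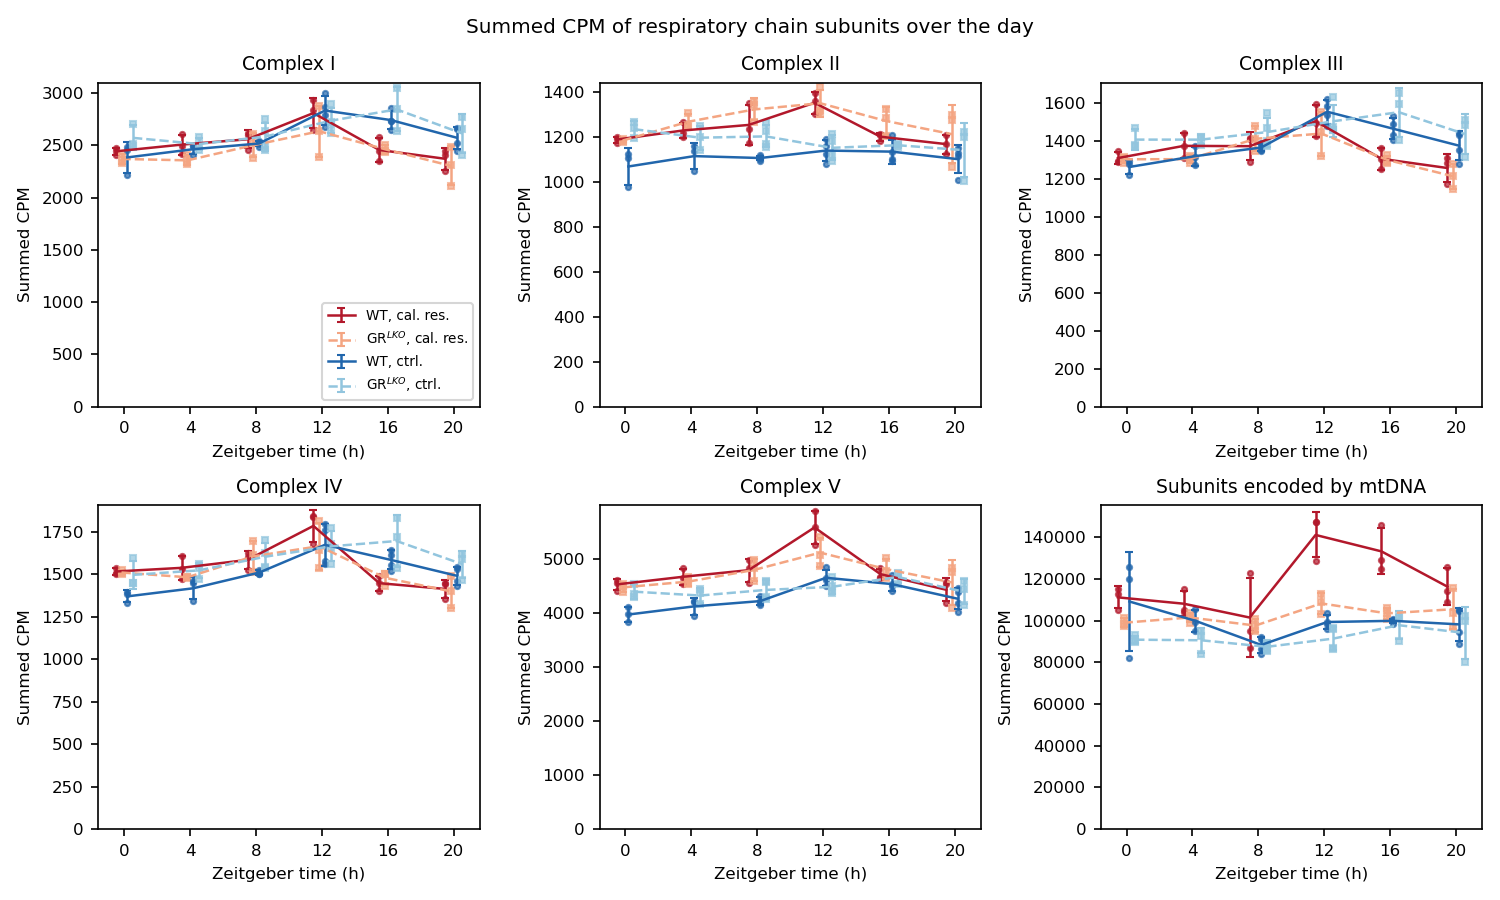
Summed CPM of each complex and of the subunits encoded by mitochondrial DNA (vertical axis) by Zeitgeber time (horizontal axis) in the 4 groups of the time series, as single livers, group means and SD. Complex V in WT on caloric restriction had its highest mean, 5578 CPM, at ZT12; the diets are separate library batches and their levels are not compared.

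JTK_CYCLE, run per group at a period of 24 h, served as the test for daily rhythms, and a gene is called rhythmic here at an adjusted p under 0.05 with an amplitude over 0.1 on the variance-stabilised (VST) scale. In WT on caloric restriction 17 of 85 members with counts were rhythmic, 20% against 20.8% of all genes. In GR LKO on caloric restriction it was 10 of 84, 11.9% against 19.0%. In WT on control diet 25 of 85 were rhythmic, 29.4% against 24.1%, and in GR LKO on control diet 10 of 84, 11.9% against 20.9%. These backgrounds include genes of very few counts. Among genes past the filter the shares were 21.5% of members against 30.1% of all genes, 12.7% against 27.8%, 31.6% against 35.8% and 12.7% against 31%, so that the members lay below the background in each of the 4 groups. The amplitudes were low, with medians of 0.138, 0.160, 0.141 and 0.117 for rhythmic members against 0.267, 0.275, 0.199 and 0.218 for all rhythmic genes. A test for any difference among the 6 times, the edgeR F test, called 48, 25, 48 and 14 of 79 members. This is 60.8%, 31.6%, 60.8% and 17.7% of them, against 64.3%, 60.5%, 50% and 42.0% of all genes, above the background in WT on control diet and below it in the other 3 groups.

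These counts rest on few mice per time point. With replicate 1, 2 or 3 of every time left out, 1 member was called rhythmic in WT on caloric restriction and 1, 1 and 0 in GR LKO on caloric restriction. In WT on control diet the counts were 10 without replicate 1 and 13 without replicate 3, and in GR LKO on control diet 5 without replicate 1 and 1 without replicate 2 or replicate 3. Of the 17 members rhythmic in WT on caloric restriction, 7 were also rhythmic in WT on control diet, 41.2% of these 17 and 28.0% of the other 25, against 54.3% and 46.3% for the 2102 shared among all rhythmic genes of these groups. Ndufs3 and Ndufa5, of complex I, were rhythmic in all 4 groups, and 40 members in at least 1 group, where all genes gave 1144 and 7776. Both genes were named after their values were seen.

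The members with the smallest JTK adjusted p in WT on caloric restriction were Atp5h (exact null distribution, 0.000803, amplitude 0.133), Ndufv3 (0.00290, 0.166), Sdhc (0.00290, 0.107), Atp5b (0.00406, 0.106) and Cox5a (0.00545, 0.107). From ZT0 to ZT20 the group means of Atp5h were 173, 189, 194, 231, 205 and 181 CPM, with a maximum at ZT12. Atp5b followed the same course at 1315, 1394, 1452, 1707, 1436 and 1297 CPM, and Cox5a at 121, 130, 132, 168, 136 and 118 CPM. In these 3 genes every liver at ZT12 lay above every liver at the other times. Sdhc, a membrane anchor of complex II, was highest at ZT12 too, with 162, 177, 183, 189, 165 and 158 CPM, though ZT8 and ZT12 overlap. Ndufv3, a small subunit of the flavoprotein part of complex I, ran ahead of them with 63.9, 66.3, 63.6, 58.0, 52.4 and 53.8 CPM, highest at ZT4. In GR LKO livers on the same diet Cox5a went through 107, 114, 120, 124, 128 and 126 CPM, without the step at ZT12.

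Whether rhythms differed was tested with limma, by letting the cosine and sine terms of time differ between 2 groups. Between the genotypes limma called 0 of 79 members on caloric restriction (0.659% of all genes), with 3 at an unadjusted p under 0.05 (1575 of all 13041 genes) and 0 by edgeR. On control diet it called 0 of 79 (0.366%), with 13 unadjusted (1261 of all 12834 genes) and 0 by edgeR. For Cox5a on caloric restriction the unadjusted limma p was 0.0251 and the adjusted p 0.321, so that the flatter course in GR LKO livers did not pass the test.

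Between the diets in WT livers limma called 32 of 79 members, 40.5% against 26.6% of all genes, with 44 at an unadjusted p under 0.05 (5171 of all 12971 genes). The fitted waves of these 32 peaked at different hours. On caloric restriction 10 peaked from 0 to 6 h, 21 from 6 to 12 h and 1 from 12 to 18 h, around a circular mean of 7.60 h. On control diet 1 peaked from 6 to 12 h, 30 from 12 to 18 h and 1 from 18 to 24 h, around 13.8 h. The peak was earlier on caloric restriction in 29 of the 32, by a median of 5.52 h over all 32, and later in 3. Of those 3, Ndufc2 had a nearly flat wave on control diet (amplitude 0.013) and Ndufa8 on caloric restriction (0.036). Their peak hours mean little. Ndufb7 peaked at 1.45 h on caloric restriction and 14.6 h on control diet, and Ndufa13 at 3.05 h and 14.8 h. At nearly opposite times such as these, earlier and later cannot be told apart. The amplitude was larger on caloric restriction in 13 of the 32 and smaller in the others. These 32 were chosen for a difference in rhythm, and over all 79 members past the filter the circular means were closer, at 9.90 h on caloric restriction and 13.8 h on control diet. The count was 17 without replicate 1 of every time, 13 without replicate 2 and 12 without replicate 3.

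**Figure D3:**
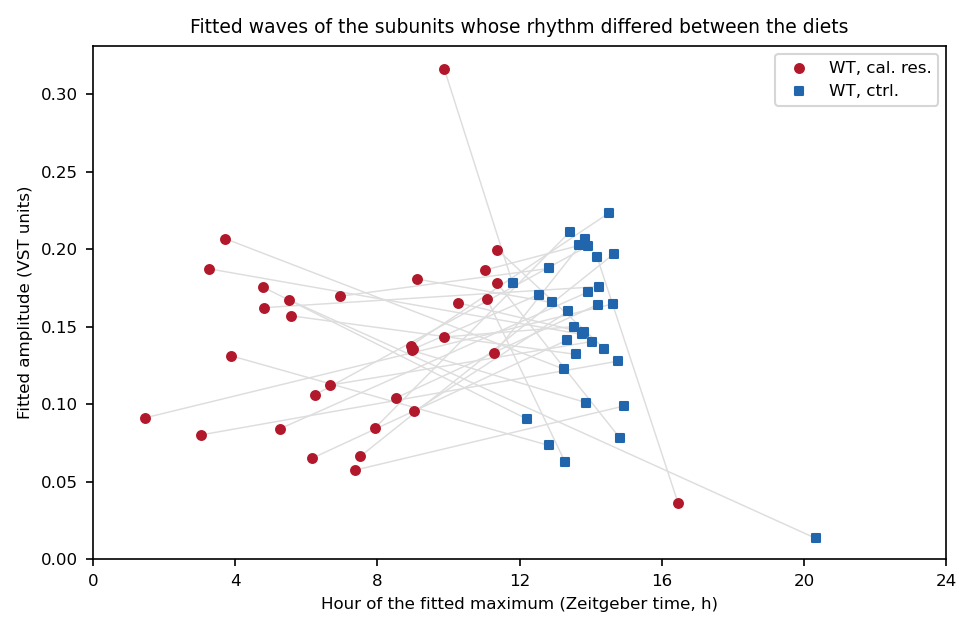
Fitted amplitude on the VST scale (vertical axis) against the hour of the fitted maximum (horizontal axis) for the 32 subunits whose rhythm differed between the diets in WT livers (limma), with a grey line joining the 2 diets of a gene. The circular mean peak was 7.60 h on caloric restriction and 13.8 h on control diet.

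The 5 smallest adjusted p of this test belonged to 3 members of complex III, 1 of complex V and 1 of complex I. Uqcr11, a small subunit of complex III (limma adjusted p 4.56e-05), had group means of 110, 117, 111, 92.1, 88.7 and 98.1 CPM from ZT0 to ZT20 on caloric restriction, highest at ZT4 and lowest at ZT16. On control diet its means were 133, 136, 145, 158, 154 and 140 CPM, highest at ZT12. The fitted peaks were 3.72 h and 13.2 h. Atp5d, of the central stalk of ATP synthase (7.86e-05), peaked at 4.81 h and 14.2 h, Uqcrc1 (0.000249) at 6.95 h and 12.8 h, Uqcrq (0.000270) at 3.25 h and 13.7 h, and Ndufa7 (0.000376) at 5.57 h and 13.6 h. In Uqcrq, at 154, 155, 145, 130, 121 and 134 CPM on caloric restriction and 224, 238, 249, 285, 267 and 256 CPM on control diet, the time of the maximum on the control diet was close to the time of the minimum on caloric restriction.

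Core, NADH-binding and regulatory subunits were among the 32 as well. Uqcrc1 went through 236, 264, 261, 257, 217 and 216 CPM on caloric restriction and 206, 232, 249, 284, 261 and 240 CPM on control diet in WT livers. Ndufv1 went through 155, 176, 175, 192, 161 and 143 CPM on caloric restriction and 136, 144, 155, 175, 165 and 147 CPM on control diet. Cox4i1 went through 298, 307, 317, 358, 279 and 281 CPM and 268, 288, 315, 353, 322 and 295 CPM. All 3 dropped between ZT12 and ZT16 in the means of both diets, and on caloric restriction the mean at ZT16 was near or below the mean at ZT0, while on control diet it was above it. Ndufs1 (133, 139, 139, 167, 152 and 137 CPM, then 128, 121, 128, 130, 127 and 122 CPM), Sdha, Uqcrfs1 and Atp5a1 were not among the 32.

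The sequences around the RefSeq transcription starts were searched for motifs of factors known to act on these genes, as a description of what the subunits share. RefSeq promoters (GRCm38.p6, 250 bases before to 50 after the start) were matched by Ensembl ID, else symbol or synonym, for 68 of the 88 members. These gave 73 promoters in all, set beside all 32851 promoters of the table. On either strand the letters of NRF1 (GCGCA, any base, GCGC) stood in 24.7% of the subunit promoters and 4.60% of all promoters, and CCGGAAG of the ETS family, to which GABPA belongs, in 21.9% and 8.86%. The YY1 letters AANATGGC stood in 23.3% and 6.05%, TNAAGGTCA, bound by ERR receptors, in 4.11% and 1.28%, and the GC box GGGCGG in 39.7% and 35.7%. The full palindrome of GR (GNACA, 3 bases of any kind, TGTNC) stood in 0 of 73 and in 0.475% of all. At so low a share, 0 matches in 73 promoters is a likely outcome, so no lack of GR sites can be read from it. The NRF1 letters and the GC box can fall within each other's flanks, and GC content was 57.3% in the median subunit promoter and 52.7% in all. A match is a run of letters and not a bound site. Printed next, 5′ to 3′ on the strand of the gene and with each match in capitals, are the 200 bases before the RefSeq start of Atp5h (chr11:115419920-115420119, minus strand, with NRF1 and ETS letters), Ndufb5 (chr3:32736863-32737062, plus strand, YY1) and Uqcrh (chr4:116075071-116075270, minus strand, ETS), the first 2 because they rose with diet and the last because it fell with GR loss at ZT12. The gene starts given with the values are those of GENCODE, which for Atp5h and Ndufb5 lie inside the printed stretch, so the ETS letters of Atp5h and the YY1 letters of Ndufb5 fall within the gene as GENCODE annotates it.
Atp5h: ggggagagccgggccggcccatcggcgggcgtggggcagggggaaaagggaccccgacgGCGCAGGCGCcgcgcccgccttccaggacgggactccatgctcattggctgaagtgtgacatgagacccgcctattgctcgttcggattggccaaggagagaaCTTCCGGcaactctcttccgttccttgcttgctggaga
Ndufb5: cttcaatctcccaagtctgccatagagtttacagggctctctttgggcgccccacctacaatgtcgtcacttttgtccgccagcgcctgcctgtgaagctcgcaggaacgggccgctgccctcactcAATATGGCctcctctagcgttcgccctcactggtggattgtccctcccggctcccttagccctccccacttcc
Uqcrh: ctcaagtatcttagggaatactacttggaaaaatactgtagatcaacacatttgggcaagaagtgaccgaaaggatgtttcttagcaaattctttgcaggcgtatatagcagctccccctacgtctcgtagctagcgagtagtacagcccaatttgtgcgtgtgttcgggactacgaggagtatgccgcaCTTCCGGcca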

How the data were processed

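Whole-liver polyA libraries were examined in 4 tables of estimated counts that the authors deposited, made per their methods with Salmon 1.8.0 and tximport 1.18.0, with mm10 as the genome build on the labels. The counts were rounded to whole numbers and all 90 libraries were mapped to groups by their titles. Members and lists were chosen with earlier results of these data known. Tests ran over all genes in R 4.3.3: edgeR 4.0.16 quasi-likelihood F tests (TMM, filterByExpr with a minimum count of 10, prior count 2, Benjamini-Hochberg adjusted p under 0.05), with an effect over the day taken as the mean of the 6 time points. Rhythms were tested with an own implementation of JTK_CYCLE (exact null distribution, 6 phases, amplitude over 0.1) on DESeq2 1.42.0 VST values, and differences of rhythm with limma 3.58.1. All were tested on simulated data, with changes and waves larger than those of most members. Recovery of effects as small as theirs was not tested.

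All members were counted. Members were named by rule: the 3 called with the largest rise or fall per comparison (at least 5 CPM, no overlap), a fixed set of subunits and isoform pairs, the 5 most rhythmic in WT on caloric restriction, up to 5 per interaction or difference of rhythm, unmeasured members and listed regulators. Some further names were chosen after their values were seen.

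Alternatives were DESeq2, its size factors in edgeR (RLE), no filter on low counts, a replicate block, no limit on amplitude, an edgeR F test among time points, edgeR in place of limma, and leaving out each library or replicate number in turn. Genes under the filter were left out of the tests.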

Additional observations from a re-analysis of the deposited data

Results flagged for a closer look

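In groups of 4 libraries, a library was singled out when its gap to the nearest other library was a larger share of the range of the group than Dixon's critical value allows. Of 96 groups and values examined, 3 passed this limit, and chance flags about 1 in 20 groups. Cox4i1 was low in control diet WT replicate 2 at ZT8, with 305 CPM where the other 3 libraries had 318 CPM each. In control diet GR LKO replicate 3 at ZT12 all members summed to 12173 CPM, against 11266 to 11385 CPM in the others, and complex III to 1627 CPM, against 1454 to 1469 CPM.

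A difference between groups, tested as an interaction of genotype and diet over the day with edgeR, was called for 9 members. The log2 interaction was -0.27 for Ndufa8, -0.19 for Ndufb6, -0.25 for Atp5e and -0.18 for Cox5a. The rhythm in WT livers differed between the diets by the limma test in 32 members, with adjusted p of 4.56e-05 for Uqcr11, 7.86e-05 for Atp5d, 0.000249 for Uqcrc1, 0.000270 for Uqcrq and 0.000376 for Ndufa7. Diet coincides with library batch in the time series. A shift that is constant over genotypes or times drops out of these tests, and one that is not cannot be told apart from diet.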

How the results depend on the processing

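With RLE size factors all 18 counts of called members stayed within 1.5 times their value, as did the 3 counts of rhythm differences with edgeR in place of limma. With DESeq2, 9 of 18 counts moved: to 9 for GR LKO on caloric restriction at ZT12, to 3 at ZT20 on caloric restriction and at ZT0 on control diet, and to 1 at ZT4, ZT8 and ZT16 on caloric restriction, at ZT8 and ZT16 on control diet and for the interaction at ZT12. Without a filter on low counts 1 of 21 moved, diet to 13.

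With a replicate block, which treats equal replicate numbers as paired, 3 of 21 counts moved: diet to 13, CORT to 0 and GR LKO on caloric restriction at ZT12 to 0 (edgeR). Correlations between libraries of equal number ran from -0.123 to 0.115, and in no comparison were all above 0.1. Without a limit on amplitude the rhythmic members were 26 in WT on caloric restriction and 43 in WT on control diet. The edgeR F test among time points gave 48, 25 and 48 members in WT and GR LKO on caloric restriction and WT on control diet, and 45, 24 and 46 with the replicate block.

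Leaving out 1 library or replicate number moved 39 of 140 counts. The counts ran from 7 to 19 for diet, 0 to 1 for CORT, 1 to 2 for GR LKO on caloric restriction at ZT12 and 0 to 1 at ZT20, 0 to 2 on control diet at ZT16 and 0 to 1 at ZT20, and 0 to 1 for the interaction at ZT12. Over the day they ran from 9 to 15 on caloric restriction, 6 to 16 on control diet and 3 to 9 for the interaction. Rhythmic members were 1 in WT on caloric restriction, 0 to 1 in GR LKO on caloric restriction, 10 to 27 in WT on control diet and 1 to 10 in GR LKO on control diet, and rhythm differences between diets 12 to 28. Fewer libraries enter each of these fits, and beyond that the cause was not tested, here or for the other settings. Leaving out GR LKO replicate 1 at ZT12 on caloric restriction, a choice made after seeing the data, kept 4 of 4 counts within 1.5 times, with 17 members called over the day on caloric restriction, 9 for the interaction, 8 rhythmic in GR LKO on caloric restriction and 0 with a rhythm that differed between genotypes there (limma, with 3 at an unadjusted p under 0.05 and 0 by edgeR when all libraries are kept).

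Of the 69 effects of single members called, 69 stayed called with DESeq2 and with RLE size factors, while 19 lost the call without the filter and 16 under the replicate block, and in 148 of 307 fits with a library or replicate number left out a member lost its call. The direction reversed in 0 of these fits (edgeR and DESeq2).

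With 3 or 4 mice per group and totals from 10057544 counts, members of a few CPM rest on few counts per library. Small differences of common subunits between the genotypes passed the test mainly in averages over the day. For diet, 20 of 78 members were called at ZT12 alone.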

Other observations

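Cox6b2, a testis isoform of complex IV chosen after its values were seen, differed widely between livers of the same group near the start of the dark phase. It also had the largest ratio of highest to lowest mean of any member past the filter in each group of the time series. The ratios were 376 and 68.7 in WT and GR LKO on caloric restriction and 255 and 43.4 on control diet, over lowest means near 0. At ZT12 it stood at 8.71, 7.88 and 5.16 CPM in WT and 10.1, 7.78 and 0.122 CPM in GR LKO livers on caloric restriction. On control diet it stood at 5.0, 0.152, 5.19 and 5.42 CPM in WT and 0.327, 6.60, 10.6 and 0.0671 CPM in GR LKO livers at that time. Single livers were near 0 while others of their group were not. Ndufa9, an accessory subunit of complex I, was likewise uneven, with 9.21, 0, 0 and 30.4 CPM in WT on control diet at ZT12.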
